A study of Mus musculus with 12 samples.

Results

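The FGF, IGF and PDGF growth factor genes measured in these hearts were the 45 genes on the array whose symbol is Fgf with a number, Fgfr or Igfbp with a number, or names an IGF, a PDGF or one of their receptors. The rule used names and no values, though it was written with earlier results of these data known. The genes make up 45 of the 34844 gene names on the array and 74 of its 55681 probes. In 6-month-old hearts from which Nkx2-5 had been deleted in the embryo, 28 of these genes could be tested. Of these, 2 rose past the threshold, Igfbp3 and Pdgfrb, both in the hearts deleted from E10.5, where 2.15% of all tested genes passed. Igfbp3, a carrier protein that holds IGF outside the cell, was 3.11 times the control level there, and Pdgfrb, the PDGF receptor of pericytes and smooth muscle, was 1.3 times the control level. In hearts deleted from E13.5 they were 1.92 and 1.33 times the control level and missed the threshold (adjusted p = 0.155 and 0.0511, limma). By SAM, a permutation-based test, both genes passed in each mutant. The Pdgfrb rise was thus of like size in both mutants, and its call was lost when any 1 of 7 of the 8 arrays was left out. No ligand, no FGF receptor and neither IGF receptor passed the threshold in any comparison, and Igf1, Fgf13 and Pdgfra were among those that did not.

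Fibroblast growth factors are ligands that mostly act through receptor tyrosine kinases and heparan sulfate on the cell surface, while one branch of the family, to which Fgf11, Fgf12 and Fgf13 belong, stays inside the cell and binds ion channels. Insulin-like growth factors act through Igf1r and are carried by the binding proteins of the Igfbp family, and Igf2r clears IGF2. PDGF ligands act on Pdgfra, which marks cardiac fibroblasts, and on Pdgfrb, which marks mural cells of vessels. In the heart these families are known from growth of the compact wall, of vessels and of scar.

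RNA of the left ventricular wall with the apex and without the septum was measured on 1-colour Agilent arrays, 1 mouse per array and 4 mice per group, all aged 6 months. The mutant mice carried floxed Nkx2-5 alleles lacking the neomycin cassette (Floxed-Nkx2-5-Δneo) and Cx40-creERT2, a tamoxifen-dependent Cre under the Cx40 locus, which is active in embryonic trabecular myocardium. In Nkx2-5ΔTrbE10 mice (TrbE10, labelled Nkx2-5Δtrab) tamoxifen was given to the mother on E10.5 and again on E11.5, during trabeculation. In Nkx2-5ΔTrbE14 mice (TrbE14, labelled Nkx2-5Δcomp) she received it at E13.5 and E14.5, during compaction. Per the methods the controls were littermates homozygous for the floxed allele and Cx40+/+, so without Cre, whereas the labels call them not injected, and the files do not settle which holds. By that genotype the mutants differed from controls in Cre and the Cx40 allele too, which cannot be told apart from loss of Nkx2-5. Pups of the treated mothers were delivered by caesarean section and fostered on CD1 females. Cre could act only where Cx40 was expressed at the time of tamoxifen, so that each sample mixed deleted and undeleted muscle with all other cells of the wall, and fewer cells of a type and less RNA per cell cannot be told apart.

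The 75th percentile of the processed signal lay between 194 and 250 in every array, and between 22888 and 26155 probes per array were well above background. Nkx2-5 itself, read in the mixed wall, had log2 signals of 11.89 to 12.23 in control, 11.21 to 11.67 in TrbE10 and 11.12 to 11.63 in TrbE14 hearts, by a probe not placed relative to the deleted part. Its difference from control was -0.66 (adjusted p = 0.0459, limma) and -0.59 (adjusted p = 0.106). TrbE10 arrays had a slide and scan of their own and cannot be told apart from it, whereas TrbE14 and control arrays shared 1 slide. The Y-linked gene Ddx3y was well above background in 1 control, 2 TrbE10 and 3 TrbE14 hearts, so the sexes were unequally spread over the groups.

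Several of these genes are read by more than 1 probe, and the probes did not always tell the same story. Probes of Igfbp3, Igf1, Igf2 and Fgf13 are shown here, and none of Pdgfrb, by the first 30 of their 60 bases, 5′ to 3′ on the strand of the transcript, with the position of the whole probe on mouse build mm9 as the files give it. Igfbp3 and Fgf13 are each read at separate places, and Igf1 is shown with the probe designed on transcript NM_184052 and 2 overlapping probes designed on NM_010512. Capitals mark bases that each of these 2 has in common with the other, 40 in their whole length.
Igfbp3, on NM_008343, chr11:7106594-7106653, minus strand: gcagttttccaaaaacacagatttcttttc
Igfbp3, on ENSMUST00000135887, chr11:7107949-7108008, minus strand: ggagaacctggcatatttggtttctgaatt
Igf1, on NM_184052, chr10:87378456-87378515, plus strand: aaccattaaaaacatgccaccaagaccttc
Igf1, on NM_010512, chr10:87393561-87393620, plus strand: cctaccaaataacaataataAGTCCAATAA
Igf1, on NM_010512, chr10:87393581-87393640, plus strand: AGTCCAATAACATTACAAAGATGGGCATTT
Igf2, on NM_010514, chr7:149839661-149839720, minus strand: atcaaattatgtggtaattctgcaatgtag
Fgf13, on NM_010200, chrX:56316415-56316474, minus strand: aagaaggactgccaaattttctcatgatct
Fgf13, on ENSMUST00000131319, chrX:56504014-56504073, minus strand: attaaagaaaaaagagtccccctttcgtgc

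A probe was tested if 3 or 4 hearts of some group showed it well above background, and each gene was represented by its brightest tested probe. This left 43 probes for 28 of the 45 genes, 39 of them above background on all 12 arrays. The remaining 17 genes had no probe past this filter. They were 13 FGF ligands (Fgf2, Fgf3, Fgf4, Fgf5, Fgf8, Fgf10, Fgf14, Fgf15, Fgf16, Fgf17, Fgf20, Fgf21 and Fgf22), the receptor Fgfr4, and the carriers Igfbp1, Igfbp2 and Igfbp7. Of the 31 probes left out, 19 were well above background in no heart and none was so in more than 2, which does not show that these genes were silent.

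In TrbE10 against control, 2 of the 28 tested genes passed an adjusted p of 0.05 (limma, Benjamini-Hochberg over all probes), where 2.15% of all 18021 tested genes did. In TrbE14 against control 0 of 28 passed, where 0.76% of all genes did. Between TrbE10 and TrbE14 hearts 0 of 28 passed, as did 0% of all genes. By SAM, the permutation-based test of the study's methods, the counts were 2, 2 and 0 of 28, Igfbp3 and Pdgfrb in each mutant, beside 2.68%, 1.66% and 0.0111% of all genes. At an unadjusted p under 0.05 they were 7, 5 and 2 of 28, beside 16.8%, 13.9% and 5.96% of all genes. Mutant and control arrays did not overlap for 7 of 28 genes in TrbE10 (10.6% of all genes) and for 3 of 28 in TrbE14 hearts (10.1%), and the mutants did not overlap each other for 1 of 28 (3.37%). The median log2 difference over the 28 genes was 0.08 in TrbE10 and 0.06 in TrbE14 hearts, where that over all genes was -0.02 and -0.03. The median size of the difference was 0.22 and 0.23, beside 0.15 and 0.15 over all genes.

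**Figure D1:**
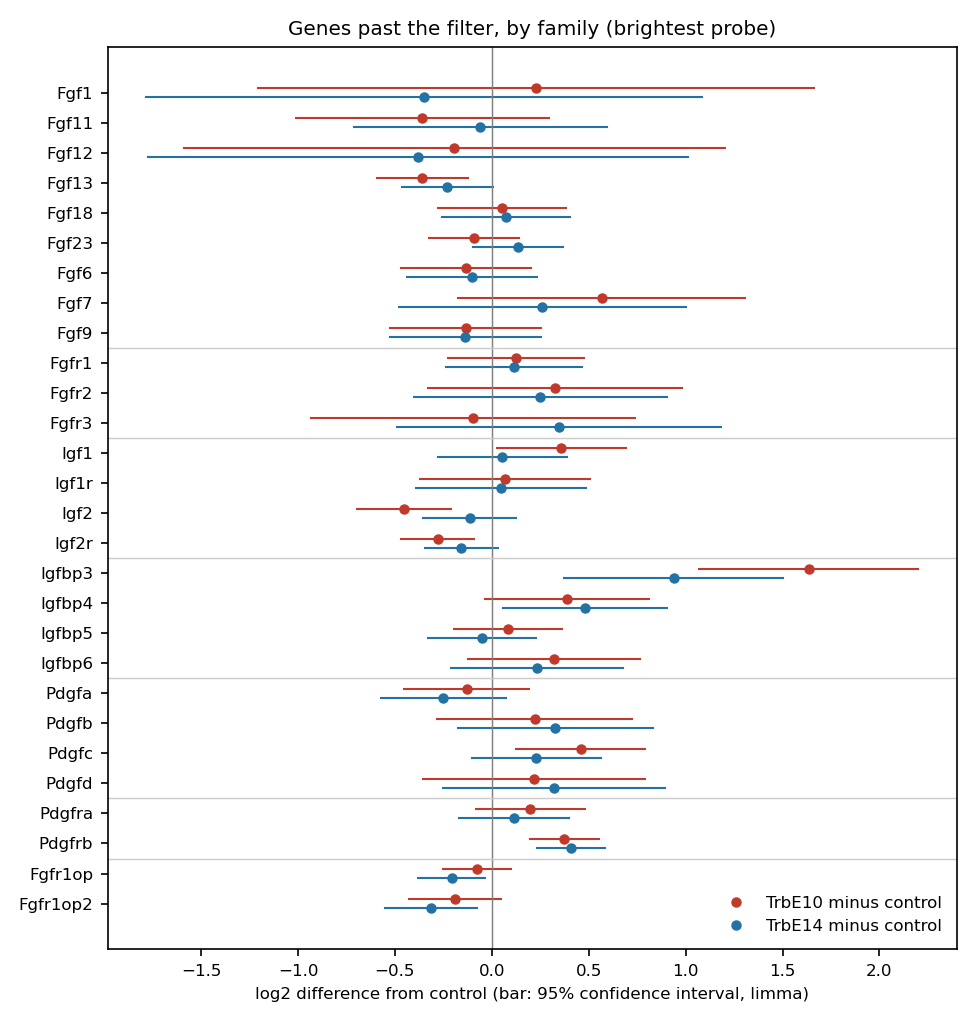
Log2 difference from control (x axis) for the 28 genes past the filter, 1 row per gene by its brightest probe, grouped by family. Red points are TrbE10 and blue points TrbE14 hearts, and bars are 95% confidence intervals of the limma fit on 4 arrays per group. Igfbp3 lies farthest from 0, at 1.64 and 0.94, and Pdgfrb has narrow intervals at 0.37 and 0.41, while the intervals of Fgf1 and Fgf12 are the widest.

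The IGF carriers held the largest difference. Igfbp3, the main carrier of IGF in serum and a product of stromal and endothelial cells, had log2 signals of 6.72, 7.03, 7.15 and 7.22 in control hearts. They were 9.51, 8.33, 8.70 and 8.13 in TrbE10 hearts and 8.20, 8.10, 7.72 and 7.86 in TrbE14 hearts. Every mutant heart lay above every control heart, and the lowest TrbE10 heart lay just under the highest TrbE14 heart. The log2 difference from control was 1.64 ± 0.26 (SE, adjusted p = 0.0108, limma) in TrbE10 and 0.94 ± 0.26 (adjusted p = 0.155) in TrbE14 hearts, a 1.92-fold difference in the latter, and the exact permutation p was 0.0286 for each, the smallest that 4 against 4 arrays can give. TrbE10 minus TrbE14 was 0.70 ± 0.26 (adjusted p = 0.788, limma), and 0.42 without the first TrbE10 array. The TrbE10 call held under each alternative run, with any of the 8 arrays left out too. The TrbE14 difference passed in 2 of the other limma fits, that with sex as a covariate (1.22, adjusted p = 0.0236) and that of these 2 groups alone on their common slide (adjusted p = 0.0441), and it passed by SAM. Over the alternatives that kept every array, the TrbE10 difference ranged from 1.27 to 1.78 and the TrbE14 difference from 0.63 to 1.22. The highest adjusted p among them was 0.0411 and 0.306 (limma). The second Igfbp3 probe, 1355 bases away, was not well above background on any array, so all of this rests on 1 probe.

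Igfbp4, a carrier made by fibroblasts and muscle that mostly restrains IGF, had log2 signals of 8.23, 8.27, 8.05 and 7.99 in control hearts. They were 8.80, 7.91, 8.67 and 8.70 in TrbE10 and 8.24, 8.73, 8.82 and 8.67 in TrbE14 hearts. In each mutant group 3 hearts lay above the controls and 1 did not, the second TrbE10 heart being the lowest of all 12. The log2 difference was 0.39 ± 0.19 (SE, adjusted p = 0.347, limma) and 0.48 ± 0.19 (adjusted p = 0.315). Without the second TrbE10 heart the TrbE10 difference was 0.59 (adjusted p = 0.0532). Igfbp6, which prefers IGF2, differed from control by 0.32 and 0.23, and Igfbp5, bound to extracellular matrix, by 0.08 and -0.05, with overlapping groups in each case. Of the 4 tested carriers 4 had a positive difference in TrbE10 and 3 in TrbE14 hearts, beside 45.2% and 44.1% of all genes. The other 3 carriers were not tested.

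Among the IGF ligands and receptors none passed the threshold. Igf2, the fetal growth factor expressed from the paternal allele, had log2 signals of 6.05, 6.44, 6.12 and 6.21 in control, 5.92, 5.58, 5.76 and 5.75 in TrbE10, and 5.98, 6.04, 6.05 and 6.28 in TrbE14 hearts. All TrbE10 hearts lay below all control and all TrbE14 hearts. Only Igf2 of the tested genes had TrbE10 and TrbE14 arrays that did not overlap, 1 of 28, beside 3.37% of all genes. The log2 difference of TrbE10 was -0.45 ± 0.11 from control (SE, adjusted p = 0.0664, limma) and -0.34 ± 0.11 from TrbE14 (adjusted p = 0.694). The signal was dim. With the normexp background correction the first difference shrank to -0.19 (adjusted p = 0.168, limma) and the second to -0.08. Scaling to the 75th percentile gave -0.50 (adjusted p = 0.0489) for the first. H19, the maternally expressed RNA beside Igf2, differed from control by -0.22 (adjusted p = 0.536, limma) in TrbE10 hearts, while the TrbE14 difference was 0.46 (adjusted p = 0.257).

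Igf2r, which takes IGF2 into lysosomes, had log2 signals of 11.54, 11.41, 11.47 and 11.39 in control, 11.09, 11.17, 11.15 and 11.28 in TrbE10, and 11.11, 11.35, 11.28 and 11.44 in TrbE14 hearts. TrbE10 hearts all lay below control hearts and TrbE14 hearts overlapped them. The log2 difference was -0.28 ± 0.09 (SE, adjusted p = 0.136, limma) in TrbE10 and -0.16 ± 0.09 (adjusted p = 0.440) in TrbE14 hearts. The signalling receptor Igf1r differed from control by 0.07 and 0.05, with 95% confidence intervals of -0.37 to 0.51 and -0.39 to 0.49.

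Igf1, a local growth factor made by fibroblasts and macrophages as well as by the liver, was read by 5 probes, and they did not move together. The brightest, one of those designed on NM_010512, gave log2 signals of 7.29, 6.95, 7.31 and 7.20 in control, 7.37, 7.84, 7.44 and 7.53 in TrbE10, and 6.97, 7.55, 7.41 and 7.04 in TrbE14 hearts. TrbE10 hearts all lay above control hearts, with a log2 difference of 0.36 ± 0.15 (SE, adjusted p = 0.276, limma), and TrbE14 hearts overlapped them, with a difference of 0.05 ± 0.15 (adjusted p = 0.891). The other 3 probes on NM_010512 differed by 0.30, 0.40 and 0.31 in TrbE10 hearts. The probe designed on NM_184052, 15125 bases upstream, gave 7.38, 7.25, 7.34 and 7.36 in control, 7.21, 7.12, 7.27 and 6.90 in TrbE10, and 7.46, 7.36, 7.22 and 7.21 in TrbE14 hearts, a TrbE10 difference of -0.21 ± 0.10 (adjusted p = 0.310).

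Within each array, the brightest NM_010512 probe minus the NM_184052 probe spanned -0.31 to -0.03 on the log2 scale in controls, 0.16 to 0.71 in TrbE10 and -0.49 to 0.18 in TrbE14 hearts. TrbE10 hearts did not overlap controls in this difference, whose means were -0.15 ± 0.12 and 0.42 ± 0.30 (SD, n = 4), and TrbE14 hearts did. It was singled out after the values had been seen, and 2 of the 10 pairs of Igf1 probes, both of the NM_184052 probe with one of the overlapping pair, showed no overlap. It is given as a description without a test, and shows only that the 2 probes changed unequally.

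**Figure D2:**
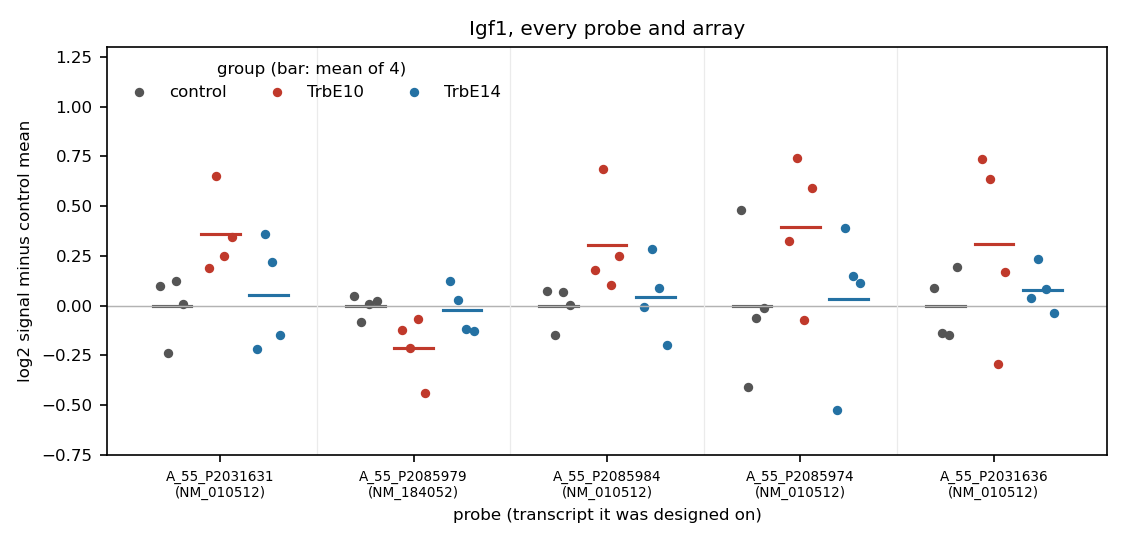
Log2 signal minus the control mean (y axis) for each of the 5 Igf1 probes (x axis, with the transcript each was designed on), 1 point per array and a bar at the mean of 4. The TrbE10 means of the 4 probes on NM_010512 lie between 0.30 and 0.40 above control, and that of the probe on NM_184052 lies 0.21 below it.

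Of the 2 PDGF receptors, Pdgfrb rose past the threshold in TrbE10 hearts. Its log2 signals were 10.31, 10.40, 10.25 and 10.18 in control, 10.74, 10.57, 10.73 and 10.60 in TrbE10, and 10.72, 10.80, 10.63 and 10.63 in TrbE14 hearts. Both mutant groups lay wholly above the controls and overlapped each other. The log2 difference from control was 0.37 ± 0.08 (SE, adjusted p = 0.0444, limma) in TrbE10 and 0.41 ± 0.08 (adjusted p = 0.0511) in TrbE14 hearts, the exact permutation p being 0.0286 for each, and TrbE10 minus TrbE14 was -0.04 ± 0.08 (95% confidence interval -0.21 to 0.14). Both p-values lay close to the threshold. The TrbE10 call was lost in the fit that left out any 1 of 7 of the 8 arrays, all but the second TrbE10 array, with adjusted p from 0.0527 to 0.128.

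Pdgfra, the receptor of PDGF-A and PDGF-C that marks fibroblasts, had log2 signals of 8.85, 9.31, 9.17 and 9.09 in control, 9.46, 9.13, 9.27 and 9.34 in TrbE10, and 9.27, 9.49, 9.04 and 9.08 in TrbE14 hearts. The 3 groups overlapped. The log2 difference was 0.20 ± 0.13 (SE, adjusted p = 0.477, limma) and 0.11 ± 0.13 (adjusted p = 0.705), with 95% confidence intervals of -0.08 to 0.48 and -0.17 to 0.40.

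Of the PDGF ligands none passed. Pdgfc, a ligand of Pdgfra that needs proteolysis to act, had log2 signals of 6.15, 6.20, 6.09 and 6.23 in control, 6.67, 7.06, 6.46 and 6.30 in TrbE10, and 6.14, 6.41, 6.59 and 6.44 in TrbE14 hearts. TrbE10 hearts all lay above control hearts, with a log2 difference of 0.46 ± 0.15 (SE, adjusted p = 0.165, limma), and TrbE14 hearts did not (0.23 ± 0.15, adjusted p = 0.516). With the normexp background correction the TrbE10 difference was 0.24 (adjusted p = 0.185). Pdgfa, the main muscle-derived ligand of Pdgfra, had signals of 11.67, 11.89, 11.95 and 11.98 in control, 12.01, 11.88, 11.53 and 11.55 in TrbE10, and 11.81, 11.85, 11.47 and 11.36 in TrbE14 hearts. Its groups overlapped, and the difference was -0.13 ± 0.15 and -0.25 ± 0.15 (adjusted p = 0.712 and 0.472). Pdgfb, the endothelial ligand of Pdgfrb, differed by 0.22 and 0.33, and Pdgfd, which also binds Pdgfrb, by 0.22 and 0.32, all within the spread between hearts.

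Among 9 tested FGF ligands the smallest p-values were those of Fgf13, an intracellular FGF that binds the cardiac sodium channel. Its brightest probe gave log2 signals of 9.18, 9.01, 9.23 and 9.09 in control, 8.94, 8.67, 8.61 and 8.84 in TrbE10, and 8.67, 8.89, 8.97 and 9.06 in TrbE14 hearts. The second, on another transcript 187599 bases away, gave 7.54, 7.55, 7.92 and 8.03 in control, 7.43, 7.23, 6.88 and 7.21 in TrbE10, and 7.41, 7.58, 7.33 and 7.54 in TrbE14 hearts. By each probe all TrbE10 hearts lay below all control hearts while TrbE14 hearts overlapped them. The TrbE10 difference was -0.36 ± 0.11 (SE, adjusted p = 0.126, limma) by the first and -0.57 ± 0.14 (adjusted p = 0.0747) by the second probe, and the TrbE14 difference was -0.23 ± 0.11 (adjusted p = 0.381) and -0.30 ± 0.14 (adjusted p = 0.393). No probe of Fgf13 passed the threshold.

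Fgf1, the FGF that muscle expresses and that binds every FGF receptor, varied more between hearts of a group than between groups. Its log2 signals were 12.78, 12.79, 12.74 and 13.73 in control, 12.62, 12.99, 13.68 and 13.68 in TrbE10, and 12.96, 10.28, 13.69 and 13.72 in TrbE14 hearts. The second TrbE14 heart lay lowest of all 12 by this probe and also by the other Fgf1 probe, at 5.15. The differences from control were 0.23 ± 0.65 and -0.35 ± 0.65 (SE, adjusted p = 0.897 and 0.829, limma), with 95% confidence intervals of -1.21 to 1.66 and -1.78 to 1.08. Fgf7, made by mesenchyme for epithelia, differed by 0.57 and 0.26, and Fgf6, Fgf9, Fgf11, Fgf12 and Fgf18 by between -0.38 and 0.07, none beyond the spread between hearts. Fgf12 passed the filter through the mutants alone, with 2 control arrays above background. Fgf23, the bone hormone of phosphate balance, was well above background on all 12 arrays by 1 probe and on none by another 531 bases away, so its level stays uncertain.

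The FGF receptors showed no difference past the threshold. Fgfr1, the main receptor of heart muscle and fibroblasts, differed from control by 0.13 ± 0.16 and 0.11 ± 0.16 (SE, adjusted p = 0.744 and 0.764, limma). Fgfr2 differed by 0.33 and 0.25 and Fgfr3 by -0.10 and 0.35, and Fgfr3 ranged from 8.28 to 10.20 among TrbE10 hearts alone.

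Fgfr1op and Fgfr1op2 share only the name, given to them as fusion partners of Fgfr1 in leukaemia. Fgfr1op, a centrosomal protein, had log2 signals of 9.70, 9.70, 9.65 and 9.75 in control, 9.54, 9.72, 9.51 and 9.72 in TrbE10, and 9.40, 9.57, 9.55 and 9.45 in TrbE14 hearts. TrbE14 hearts lay wholly below controls, by -0.21 ± 0.08 (SE, adjusted p = 0.295, limma). Fgfr1op2 differed from control by -0.19 ± 0.11 and -0.31 ± 0.11 (adjusted p = 0.419 and 0.257), with overlapping groups.

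**Figure D3:**
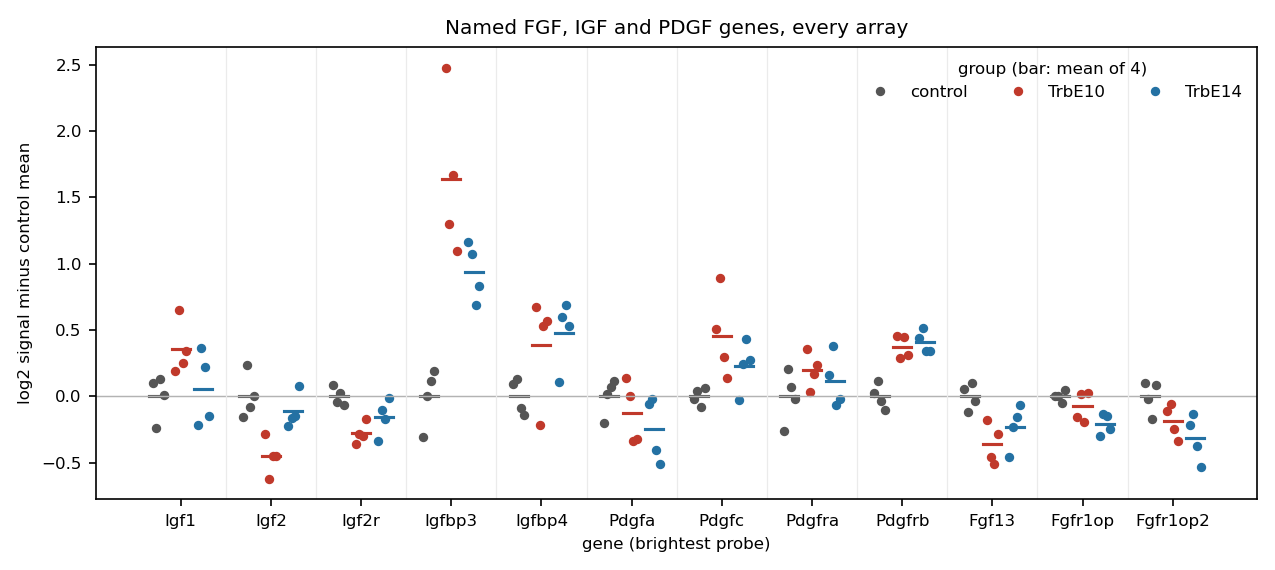
Log2 signal of the brightest probe minus its control mean (y axis) for 12 genes (x axis), 1 point per array and a bar at the mean of 4, grey for control, red for TrbE10 and blue for TrbE14. Igfbp3 and Pdgfrb have every mutant array above every control array, Igf2, Igf2r and Fgf13 have the TrbE10 arrays below the controls, and Pdgfra overlaps throughout.

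Genes that carry or answer these signals were taken from 1 list per family that leaves out the genes above. Of 31 FGF pathway genes 21 were tested. At an unadjusted p under 0.05 (limma) 4 were higher and 2 lower in TrbE10 hearts, and 1 higher and 0 lower in TrbE14 hearts. The shares over all genes were 16.8% and 13.9%. In each mutant 1 passed the threshold, where 2.15% and 0.76% of all genes did. It was the ETS factor Etv4, a transcriptional target of FGF and ERK, which rose. Its log2 signals were 6.66, 6.93, 6.67 and 7.02 in control, 7.61, 7.43, 7.93 and 7.66 in TrbE10, and 7.82, 7.74, 8.0 and 7.90 in TrbE14 hearts. Both mutants lay wholly above the controls, by 0.84 ± 0.12 (SE, adjusted p = 0.00754, limma) and 1.05 ± 0.12 (adjusted p = 0.00276). Its relative Etv5 differed by 0.66 (adjusted p = 0.105) and 0.35 (adjusted p = 0.433). The ERK phosphatase Dusp6 differed by 0.37 and 0.34 (adjusted p = 0.403 and 0.476), the heparan sulfate carrier Gpc1 by -0.31 and -0.15 (adjusted p = 0.0968 and 0.460), and the adhesion protein Flrt1 by -0.42 and -1.26 (adjusted p = 0.783 and 0.395). Other genes of this list differed in both directions. Il17rd differed by -0.36 and -0.07 (adjusted p = 0.247 and 0.857, limma), Spred2 by -0.30 and -0.18, and Spry1 by -0.08 and 0.08. Etv1 differed by -0.06 and 0.02. Spry2 was higher by 0.33 and 0.16 (adjusted p = 0.254 and 0.598, limma), and Shc1 by 0.22 and 0.10 (adjusted p = 0.135 and 0.529). The median over the 21 genes was 0.05 in TrbE10 and 0.08 in TrbE14 hearts, with 12 and 13 positive, where 45.2% and 44.1% of all genes were.

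Of 29 IGF pathway genes 22 were tested and 0 passed the threshold in either mutant. At an unadjusted p under 0.05 (limma) there were 3 and 2 of 22, beside 16.8% and 13.9% of all genes. Htra1, a protease that cuts IGF carriers, differed by -0.39 in TrbE10 and -0.38 in TrbE14 hearts (adjusted p = 0.0942 and 0.160, limma). Stat5b, which acts below growth hormone, differed by -0.28 and -0.06, its inhibitor target Socs2 by 0.64 and 0.21, and the docking protein Irs1 by -0.29 and -0.43. The median was -0.04 and 0.01.

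Of 20 PDGF pathway genes 18 were tested and 0 passed in either mutant. At an unadjusted p under 0.05 there were 5 and 4, beside 16.8% and 13.9% of all genes, and 14 and 16 had a positive difference, beside 45.2% and 44.1% of all genes. Plat, the protease that activates PDGF-C, differed by 0.48 and 0.53 (adjusted p = 0.0804 and 0.0944, limma). The clearance receptor Lrp1 differed by 0.59 and 0.49 (adjusted p = 0.133 and 0.272), the matrix protein Sparc by 0.31 and 0.37 (adjusted p = 0.159 and 0.154), and the receptor-like Pdgfrl by 0.70 and 0.40 (adjusted p = 0.121 and 0.411). The median was 0.17 and 0.22.

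**Figure D4:**
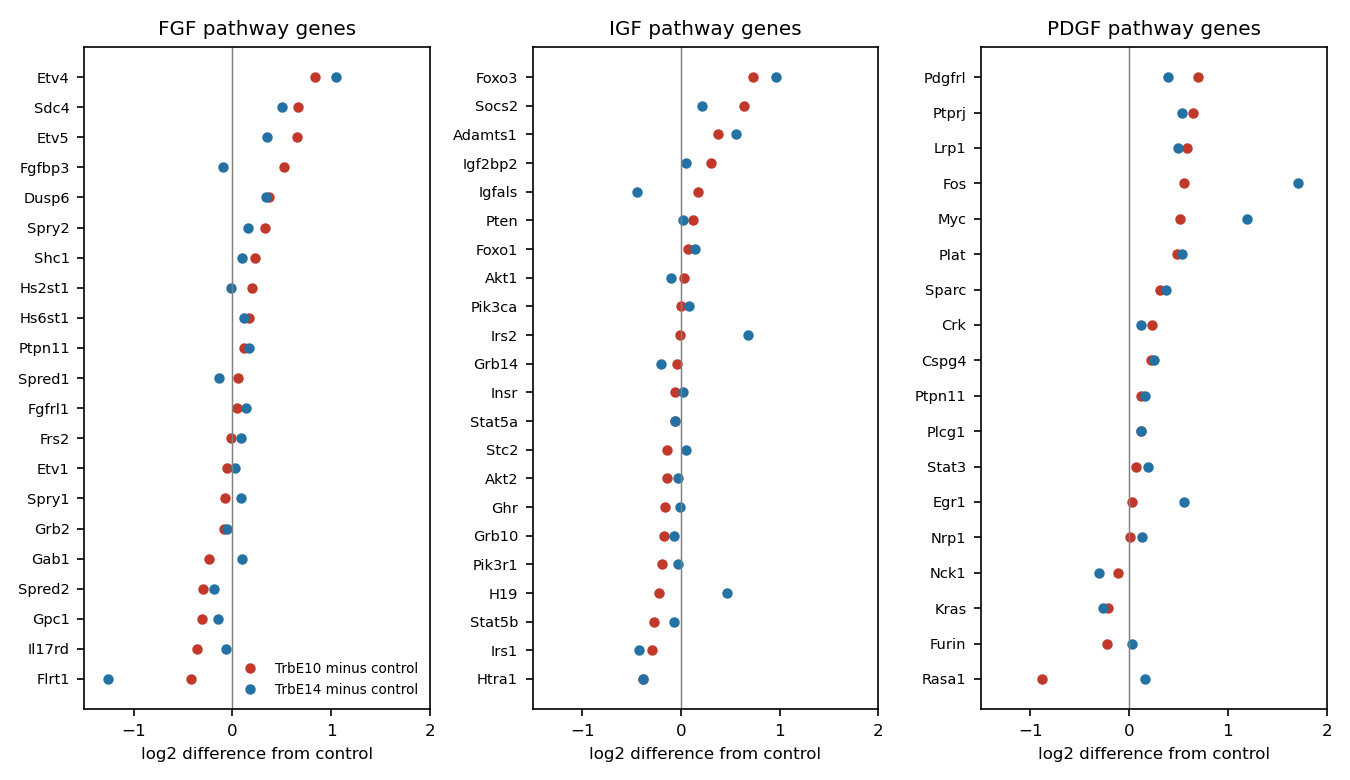
Log2 difference from control (x axis) for the tested genes of the FGF, IGF and PDGF pathway lists, 1 row per gene in order of the TrbE10 value, red for TrbE10 and blue for TrbE14. Etv4 is the only gene that passed the threshold in either mutant, at 0.84 and 1.05, and most PDGF pathway genes lie to the right of 0.

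Markers of the cells of the wall were set beside these results, and some lists differed from controls while others overlapped them. Over all genes, 2.15% passed the threshold in TrbE10 and 0.76% in TrbE14 hearts, and 16.8% and 13.9% had an unadjusted p under 0.05 (limma). A positive difference was seen in 45.2% and 44.1% of all genes, and single genes did not overlap controls in 10.6% and 10.1%. Of 11 fibroblast markers other than Pdgfra, all tested, 10 had a positive difference in each mutant and Dcn passed in each. The log2 of their summed signal spanned 16.66 to 16.80 in controls, 16.94 to 17.20 in TrbE10 and 17.06 to 17.29 in TrbE14 hearts, without overlap between controls and mutants. For 12 macrophage markers, cells that also make Igf1, the spans were 13.53 to 13.80, 14.29 to 14.62 and 14.18 to 14.28, again apart from controls, with 5 markers passing in TrbE10 and 1 in TrbE14 hearts, Csf1r in both. For 7 pericyte markers other than Pdgfrb they were 14.10 to 14.18, 14.16 to 14.30 and 14.20 to 14.33, and in TrbE10 hearts Vtn fell past the threshold. A gene of these lists was counted as passing if any probe did, and Mcam passed in TrbE10 by a dimmer probe (0.61, adjusted p = 0.0351, limma) and not by its brightest (0.26, adjusted p = 0.331). For 8 endothelial markers they were 15.01 to 15.43, 15.41 to 15.59 and 15.37 to 15.63, with Vwf higher in each mutant. The part of these cells in the Igfbp3, Pdgfrb, Igf1 and Pdgfc differences was not tested. The 10 cardiomyocyte markers had 0 past the threshold in limma, with 3 and 1 at an unadjusted p under 0.05, all lower in the mutants. Their sums spanned 20.22 to 20.31 in controls, overlapping both mutants. They spanned 20.2986 to 20.35 in TrbE10 and 20.21 to 20.2980 in TrbE14 hearts, so the mutants all but touched. The brightest markers weigh most in these sums, and quantile normalization holds the top of each array's scale alike. Myl3 read 18.32 on every TrbE10 array and on most others, so overlap of these sums says little about cardiomyocyte content. Of the 10 markers 7 were lower in TrbE10 than in TrbE14 hearts, with a median of -0.09, so most markers went against the sums. Of 5 smooth muscle markers, all tested, 4 had a positive difference in TrbE14 hearts with a median of 0.75, and 3 of them, Myh11, Tagln and Cnn1, had an unadjusted p under 0.05, with 0 past the threshold. In TrbE10 hearts their median was 0.01, and their sums spanned 15.29 to 15.73 in control, 15.36 to 15.96 in TrbE10 and 15.51 to 16.23 in TrbE14 hearts. Of 4 epicardial markers 2 were tested, and Wt1, an epicardial transcription factor, differed by 1.22 in TrbE10 and 0.93 in TrbE14 hearts (adjusted p = 0.0780 and 0.246, limma). The part of these cells in the Pdgfrb difference was not tested either. Sums of adipocyte (5 of 6 tested) and skeletal muscle markers (3 of 5) overlapped between groups, and Tnni2, a skeletal muscle troponin, fell in TrbE10 hearts. The adipocyte sums did not show the direction of most of their markers. Of the 5 tested, 4 had a negative difference in each mutant, with a median of -1.27 in TrbE10 and -0.41 in TrbE14 hearts. In TrbE10 hearts 2 were lower at an unadjusted p under 0.05 (limma), and 0 passed the threshold in either mutant. Lep, Upk3b, Upk1b, Myh4 and Myh1 did not pass the filter.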

How the data were processed

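The deposited scanner files hold, per spot, a background-subtracted processed intensity without scaling between arrays, made by the authors with Agilent Feature Extraction 10.5, and flags for background and outliers. The authors also deposited log2 values of 22114 probes after quantile normalization and a filter at 75%. Here the processed intensities of 62976 spots were log2-transformed, control spots (3671) and outlier spots (93 to 131 per array) were removed, values were quantile normalized and spots averaged by probe. Of 55681 probes 24593 passed the filter, with 7 missing values. Probes were fitted with limma 3.58.1 in R 4.3.3, as 1 mean per group over all 12 arrays (9 residual and 2.19 prior degrees of freedom), with Benjamini-Hochberg adjustment over all probes within each comparison. Single genes were also tested by two-sided exact permutation over 70 label orders. Figures were drawn with matplotlib 3.10.9. Methods were tested on simulated data.

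The members, marker and pathway lists and tests were chosen with earlier results of these data known. Genes described in full were Igf1, Fgf13, Pdgfra, any gene past the threshold, and the 8 with the smallest p in each mutant. List genes were named when past the threshold or among the 3 smallest p, and Dusp6, Fgf1, Fgf23 and others outside these rules were named after their values had been seen. The number of arrays limits the precision. Replicate numbers were tested for pairing: deviations correlated above 0.1 in 0 of 8 same-numbered pairs of control with mutant arrays and in 3 of 4 of TrbE10 with TrbE14 arrays (range of all 12, -0.24 to 0.48). Not every pair did so in any comparison, and no block was used. The number was the row on the slide. As alternatives, arrays were scaled to the 75th percentile or corrected by normexp (offset 50), the filter was dropped or set to 9 of the 12 arrays, and the values deposited by the authors were used. The test was rerun on 2 groups, by SAM (5% false discovery), with the replicate block, with a term for sex, and with each array left out. The mean over a gene's probes was added after seeing the data.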

Additional observations from a re-analysis of the deposited data

Results flagged for a closer look

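In 84 sets of 4 arrays (28 genes in 3 groups), 5 had an array far from the other 3 by Dixon's test, where chance gives about 1 in 20. The fourth control heart was highest for Fgf1, at a log2 signal of 13.73 against 12.74 to 12.79 in the others. The fourth TrbE10 heart was highest for Fgf6, at 7.30 against 6.88 to 6.94. The third TrbE14 heart was lowest for Fgf7, at 5.30 against 6.40 to 6.61. The second TrbE10 heart was lowest for Fgfr1, at 10.70 against 11.22 to 11.31, and for Igfbp4, at 7.91 against 8.67 to 8.80.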

How the results depend on the processing

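In TrbE10 hearts, the count of 2 genes past the threshold (Igfbp3 and Pdgfrb) became 1 (Igfbp3) with no filter, with only the 2 groups in the fit and with the replicate block, where Pdgfrb had an adjusted p of 0.0749, and ranged from 1 to 2 with 1 array left out. In TrbE14 hearts the count of 0 became 1 with normexp and with the authors' values (Pdgfrb, adjusted p = 0.0206 and 0.0382), 1 with 2 groups and with the sex covariate (Igfbp3), and 2 by SAM, and was 0 with any array left out. Between the mutants it was 0 in every fit. The block, under which 0 genes of these families passed between the mutants too, changed no other call of a member, and 6 of 12 arrays correlated best with their own number. Over all genes the count was 387 in TrbE10 and 137 in TrbE14 hearts, and ranged over the settings from 149 to 650 and from 76 to 299, the highest TrbE10 count being that without TrbE10 replicate 2. The Igf1 difference of TrbE14 from control was -0.018 with normexp, -0.076 with the sex covariate and between -0.048 and 0.144 with 1 array left out, negative at -0.025, -0.048 and -0.00116 without control replicate 2, TrbE14 replicate 2 and TrbE14 replicate 3. The Igfbp4 difference of TrbE10 from TrbE14 ranged from -0.218 to 0.110 with 1 array left out, the positive value without TrbE10 replicate 2. Of the 12 genes described in full, whose values alone were followed through the settings, no other changed direction. With normexp the Igf2 difference between the mutants shrank from -0.34 to -0.08 and that of Fgf13 in TrbE14 hearts from -0.23 to -0.15. That of Igf1 in TrbE10 hearts was 0.23 as the mean over its probes, and that of Pdgfa in TrbE14 hearts was -0.16 with the sex covariate and without TrbE14 replicate 4. With 75th percentile scaling Pdgfrb missed the threshold in TrbE10 (adjusted p = 0.0700) and Igf2 passed it. The causes were not tested. Fgf12, near background, has among the widest intervals.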
